A study of Mus musculus with 12 samples.

Results

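The oligodendrocyte miRNAs of the mouse brain described here are miR-219 and both arms of miR-338, miR-338-3p and miR-338-5p. The members were the count entries whose name equals mmu-miR-219, mmu-miR-338-3p or mmu-miR-338-5p, without star forms, which gave 3 of the 469 miRNAs listed with a count in any library. All 3 members passed the filter on low counts, which kept 431 miRNAs for testing.

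Mature miRNAs were measured by small RNA sequencing (miRNA-Seq) in frontal cortex (FCx) and hippocampus (HP) of untreated C57BL/6J mice aged 8 weeks. RNA of several mice was pooled for each region, and 3 libraries were made from that pool, each carrying another 6 nt index: index 3 (UUAGGC), index 7 (CAGAUC) or index 11 (GGCUAC). The index formed the last bases of the 5′ adaptor, where the miRNA is ligated. Each of the 6 libraries was sequenced in a lane of its own and again in a lane shared by the 3 indexes of its region, and here both runs were summed. The spread among the 3 libraries of a region is therefore technical and includes the index, and no p-value below measures variation between mice.

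MiRNAs are short RNAs that guide Argonaute proteins to messenger RNAs, mainly through the seed, the bases 2 to 8 from the 5′ end. MiR-219 and miR-338 are enriched in oligodendrocytes, the myelin-forming cells of the brain, where they are known to promote the step from precursor to mature cell by repressing genes that keep precursors dividing. A hairpin precursor can give a mature miRNA from its 5′ arm (5p) and from its 3′ arm (3p), and the abundance of each arm is measured separately.

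The mature sequences are shown with the seed in capitals, because the members share no seed with each other and each is counted by its own sequence. They are RefSeq's entries (GRCm38.p6) and were identical to the genome at the loci given below.
miR-219: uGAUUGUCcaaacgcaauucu
miR-338-3p: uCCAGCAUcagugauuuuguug
miR-338-5p: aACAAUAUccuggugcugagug
3p arm of Mir219-2: aGAAUUGUggcuggacaucugu
The last sequence was read from NCBIM37, the build of the authors' alignments, at the most frequent alignment on that arm. It had no mature entry in the RefSeq table and no entry in the counts. Each seed of the members occurred in 1 of the 1679 mature names of the RefSeq table, and the seed of the Mir219-2 3p arm occurred in 0.

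MiR-219 has 2 loci in NCBIM37 with an identical 5p arm, so counts of miR-219 cannot be assigned to one of them. Mir219-1 lies at chr17:34161928-34162037 on the minus strand, 303 bases from Ring1, and Mir219-2 at chr2:29701151-29701247 on the minus strand, 629 bases from Urm1. Mir338 lies at chr11:119876079-119876176 on the minus strand, within an intron of Aatk, a kinase gene transcribed from the same strand. Of 9 annotated Aatk transcripts, 6 span the hairpin and 0 have an exon over it.

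Counts assigned to miRNAs totalled 391410 to 1461732 per FCx library and 3206221 to 4956117 per HP library. Levels are given as counts per 1000000 counts on miRNAs (CPM) with an exact 95% interval, which covers counting error only, since reads carried no molecular identifiers. A count of 0 allows up to 3 counts, or 7.66 CPM in the shallowest library. Counts over neuronal marker miRNAs (miR-124, miR-128, miR-129-5p, miR-132 and miR-137) summed to 235310 to 273304 CPM in FCx and 112180 to 133720 CPM in HP. MiR-128 was the largest part of this sum in every library, at 177013 to 208464 CPM in FCx and 63974 to 110495 CPM in HP. By CPM, miR-124, miR-128, miR-129-5p and miR-132 were higher in FCx at every index, and miR-137 was higher in HP at every index. MiR-137 was at 31458, 26.7 and 61.3 CPM in FCx and 50060, 39.3 and 137 CPM in HP with indexes 3, 7 and 11. In the edgeR fit without an index term given below, miR-129-5p had a log2 ratio of FCx over HP of 0.07 ± 0.84 (SE). The part of these levels in the values of the oligodendrocyte miRNAs was not tested. Summed markers of microglia and blood lay at 33.7 to 148 CPM in FCx and 27.4 to 154 in HP, those of endothelium and mural cells at 210 to 619 and 196 to 728, and those of the choroid plexus at 2.05 to 42.9 and 6.05 to 93.3. MiR-451 was the largest part of the microglia and blood sum in every library, at 21.5 to 140 CPM in FCx and 20.2 to 143 in HP. In that list miR-223 and miR-142-3p reached at most 3.23 and 1.53 CPM. MiR-143 was the largest part of the endothelium and mural sum in every library, at 198 to 576 CPM in FCx and 178 to 680 in HP. In tissue RNA, fewer cells of a type and less RNA per cell cannot be told apart.

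MiR-219 was the most abundant member on average and miR-338-5p the least. In FCx, miR-219 was at 1484 CPM (1366 to 1610) with index 3, 340.0 CPM (311 to 371) with index 7 and 507 CPM (454 to 565) with index 11. In HP it was at 1754 CPM (1708 to 1800), 1539 CPM (1504 to 1574) and 383 CPM (364 to 402) with indexes 3, 7 and 11. FCx averaged 777 ± 618 CPM and HP 1225 ± 737 CPM (SD over 3 libraries). By counts, index 3 was high in both regions, index 7 was high in HP but lowest in FCx, and the regions overlapped. The order by genome alignments differed, as given below.

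MiR-338-3p, the more abundant arm in most libraries, followed the index. It was at 112 CPM (81.7 to 151), 677 CPM (636 to 721) and 21.5 CPM (11.7 to 36.0) in FCx with indexes 3, 7 and 11. In HP it was at 121 CPM (109 to 134), 769 CPM (744 to 793) and 22.9 CPM (18.5 to 28.1). The order of indexes was the same in both regions, and the regions overlapped. FCx averaged 270.4 ± 355 CPM and HP 304 ± 405 CPM (SD over 3 libraries), so the SD exceeded the mean in each.

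MiR-338-5p, the opposite arm of the same hairpin, was at 28.1 CPM (14.03 to 50.3), 135 CPM (117 to 155) and 27.6 CPM (16.4 to 43.6) in FCx with indexes 3, 7 and 11. In HP it was at 37.7 CPM (31.3 to 45.1), 156 CPM (145 to 167) and 14.8 CPM (11.3 to 19.1). Index 7 was again high in both regions. FCx averaged 63.5 ± 61.7 CPM and HP 69.5 ± 75.8 CPM (SD over 3 libraries), and the values rest on as few as 11 counts.

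**Figure D1:**
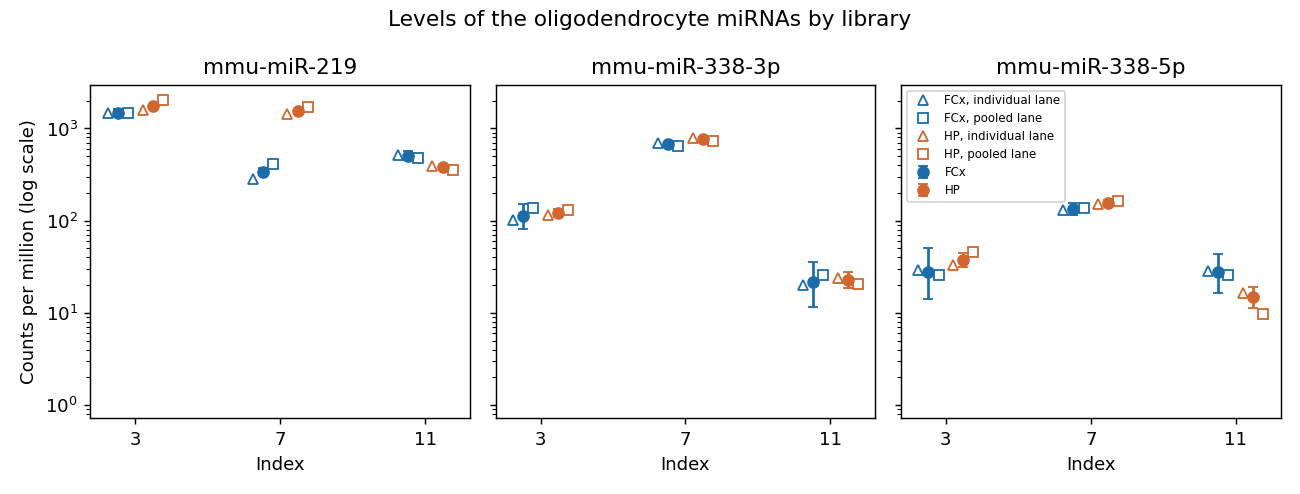
CPM (log scale) of the 3 members by index, with FCx in blue and HP in orange. Filled points are libraries with their 95% counting intervals, triangles the individual lane and squares the pooled lane. MiR-338-3p runs from 21.5 to 677 CPM across indexes in FCx and from 22.9 to 769 CPM in HP, and miR-219 differs between the regions mainly at index 7.

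The order of the members changed with the index. MiR-219 was 13.2 times as high as miR-338-3p in FCx with index 3, 23.6 times with index 11 and 0.502 times with index 7. In HP the corresponding ratios were 14.5 with index 3, 16.7 with index 11 and 2.002 with index 7. By counts, FCx with index 7 was thus the single library in which miR-338-3p stood above miR-219. MiR-219 ranked between place 36 and place 71 among the miRNAs of a library by CPM, miR-338-3p between 51 and 194, and miR-338-5p between 115 and 202.

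The 2 runs of a library were compared for each member. The pooled level over the individual one, on the log2 scale, ran for miR-219 from -0.13 to 0.57, the highest being FCx with index 7, where the level was 280.1 CPM in the individual and 416 CPM in the pooled lane. This was as large as the difference between indexes 7 and 11 of miR-219 in FCx, -0.58 (log2, with 0.5 counts added). For miR-338-3p it ran from -0.22 to 0.41. For miR-338-5p it ran from -0.76 to 0.49, with 3 to 14 counts per run in FCx with indexes 3 and 11, which differed from each other by less (-0.05, index 11 over index 3).

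The dependence on the index was tested across all miRNAs with edgeR's quasi-likelihood test, region being a term of the model. Of 431 miRNAs, 264 (61.3%) passed at a Benjamini-Hochberg adjusted p under 0.05, and all 3 members were among them. Among the members, miR-338-3p had the lowest adjusted p, 2.90e-33, followed by miR-338-5p at 7.91e-15 and miR-219 at 0.00187. MiR-338-3p was higher with index 7 than with index 11 by 4.84 ± 0.41 (log2 ± SE, adjusted p = 2.32e-27, called in this direction for 27.1% of miRNAs) and higher with index 7 than with index 3 by 2.96 ± 0.37 (adjusted p = 6.77e-14, called for 22%). MiR-338-5p was higher with index 7 than with index 11 by 2.73 ± 0.38 (adjusted p = 2.07e-11). MiR-219 had another order: its log2 ratio of index 11 over index 3 was -1.32 ± 0.36 (adjusted p = 0.00116, called for 20.9%), and its ratio of index 7 over index 11 was 0.58 ± 0.36 (adjusted p = 0.182). The call of miR-219 was lost without FCx index 3 (adjusted p = 0.315) or without HP index 3 (0.189), and its index 7 over index 11 ratio turned to -0.54 without HP index 7 and to -0.28 without HP index 11.

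The highest over the lowest CPM among indexes was 31.6 (18.7 to 57.9) in FCx and 33.5 (27.3 to 41.6) in HP for miR-338-3p. With 0.5 counts added, this range of miR-338-3p ranked 9 of 139 in FCx and 5 of 139 in HP among those averaging 100 CPM or more, whose medians were 4.32 and 3.85. The range of miR-219, 4.37 (3.87 to 4.93) in FCx and 4.58 (4.33 to 4.85) in HP, ranked 69 and 64, near the middle. That of miR-338-5p was 4.89 (3.01 to 8.41) in FCx and 10.5 (8.10 to 13.9) in HP.

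**Figure D2:**
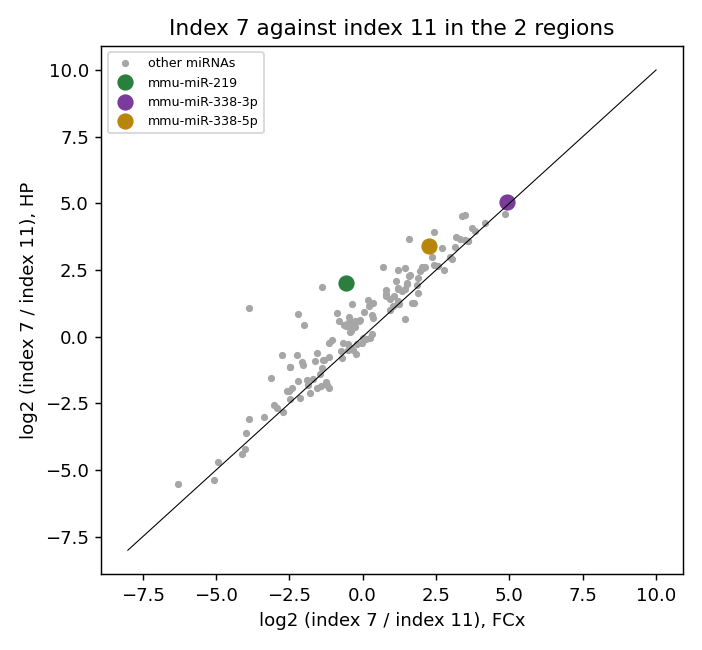
Log2 ratio of index 7 over index 11 in FCx (horizontal) and HP (vertical), each from counts with 0.5 added, for miRNAs averaging 100 CPM or more (grey) and the 3 members (coloured), with the line of equal ratios. MiR-338-3p lies near the line at the upper right, and miR-219 lies above it.

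Whether FCx and HP differed was asked first over all libraries and then within each index. Across libraries without an index term, 2 of 431 miRNAs (0.464%) passed edgeR's quasi-likelihood test, 17 (3.94%) had an unadjusted p under 0.05, and 0 of the 3 members passed. The log2 ratio of FCx over HP was -1.15 ± 0.76 (SE) for miR-219, -0.13 ± 1.35 for miR-338-3p and -0.16 ± 1.08 for miR-338-5p, each with an adjusted p of 0.992. The CPM of the regions did not overlap for 39 of 431 miRNAs (9.05%) and for 0 of 3 members.

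With the index as a block, 77 of 431 miRNAs passed (17.9%), 55 of them higher in HP (12.8%), and miR-219 was the member that passed. Its log2 ratio of FCx over HP was -1.09 ± 0.30 (SE, adjusted p = 0.00287). MiR-338-3p was at -0.49 ± 0.30 (adjusted p = 0.288) and miR-338-5p at -0.27 ± 0.31 (adjusted p = 0.672). The call of miR-219 depended on the scaling: with library totals in place of TMM factors (edgeR's scaling by a trimmed, weighted mean of log ratios between libraries) the block gave -0.65 ± 0.31 (adjusted p = 0.185, with 13% of all miRNAs called), the median over all tested miRNAs being -0.38 with TMM and -0.01 with totals. It also rested on index 7, since without that index it was -0.31 (adjusted p = 0.501), and it was lost without index 3 (-1.13, adjusted p = 0.114).

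Within an index, miR-219 did not keep 1 direction on the CPM scale. At index 7 it was 4.53 times as high in HP as in FCx, a log2 ratio of FCx over HP of -2.18 (95% counting interval -2.31 to -2.05). At index 3 the ratio was -0.24 (-0.37 to -0.12), and at index 11 it was 0.41 (0.23 to 0.58), with FCx higher. The counting intervals of the 3 indexes did not overlap, and the difference between indexes was not tested over replicate libraries, because each index had 1 library per region. With TMM factors the log2 ratios were -0.996, -2.01 and -0.27 at indexes 3, 7 and 11, so FCx was no longer higher at index 11, while index 7 stayed the lowest.

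MiR-338-3p had CPM ratios near 0 on the log2 scale at every index, -0.11 (-0.59 to 0.35), -0.18 (-0.28 to -0.08) and -0.10 (-1.02 to 0.72) at indexes 3, 7 and 11. With TMM factors they were -0.86, -0.01 and -0.77. MiR-338-5p was at -0.43 (-1.47 to 0.47), -0.21 (-0.44 to 0.02) and 0.90 (0.05 to 1.68). The medians over the 139 miRNAs with at least 100 CPM were 0.24, -0.20 and 0.17 at these indexes. With 0.5 counts added, the difference between the highest and the lowest of the 3 ratios was 2.58 for miR-219, place 6 of 139 from the largest, and 0.13 for miR-338-3p, place 137, beside a median of 0.70. The place of miR-338-3p moved with the run: in pooled lanes alone its difference was 0.65, place 91, and its index 11 ratio rests on 14 counts in FCx. That of miR-219 was 2.76 in individual and 2.47 in pooled lanes, places 6 and 8.

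**Figure D3:**
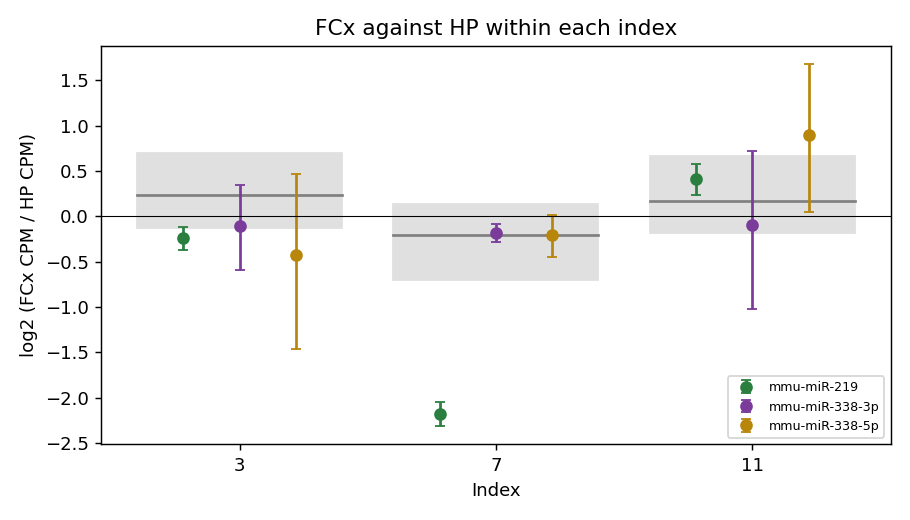
Log2 ratio of FCx over HP (CPM) of each member within index 3, 7 and 11, with 95% counting intervals. Grey boxes and lines are the quartiles and medians of the 139 miRNAs averaging 100 CPM or more. MiR-219 lies at -2.18 at index 7 and, on this scale but not with TMM factors, above 0 at index 11, and miR-338-3p stays between -0.18 and -0.10.

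The arms of miR-338 were compared as the share of 3p in the sum of 3p and 5p counts. In FCx the 3p share was 80.0% (Wilson 95% interval 67.6 to 88.4) with index 3, 83.4% (81.2 to 85.4) with index 7 and 43.8% (28.2 to 60.7) with index 11. In HP it was 76.2% (72.3 to 79.7), 83.1% (82.0 to 84.2) and 60.8% (52.9 to 68.2). The 3p arm led in 5 of 6 libraries, and index 11 gave the lowest share in both regions. The mean was 69.1 ± 21.98% in FCx and 73.4 ± 11.4% in HP (SD, n = 3), and a two-sided exact permutation test gave p = 0.9, where 0.1 is the smallest p that this design allows. The test took the libraries as independent and ignored their pairing by index, so it says little about the regions within an index.

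**Figure D4:**
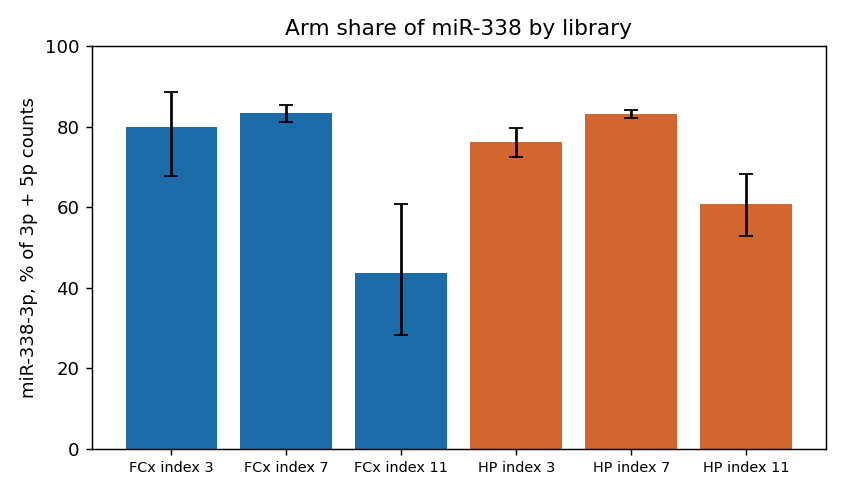
Share of miR-338-3p in the sum of both arms (percent of counts) for each library, FCx in blue and HP in orange, with Wilson 95% intervals. The share is 76.2 to 83.4% with indexes 3 and 7 and 43.8 and 60.8% with index 11.

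The genome alignments showed where reads began on the hairpins. Of alignments within 3 nt of an annotated 5′ end, the share exactly at that end was 91.7 ± 4.4% for miR-338-3p and 94.0 ± 3.6% for miR-338-5p (SD, n = 6 libraries). It was 97.2 ± 1.7% for the 5p arm at Mir219-1 and 97.3 ± 3.3% at Mir219-2. A start 1 nt downstream made up 6.03% of miR-338-3p alignments in FCx and 3.20% in HP with index 7. Such a start shifts the seed by 1 base. Most alignments were 22 nt long, 68.3 to 90.3% per library, so their 3′ ends were not read as ends of molecules.

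The 3p arm of Mir219-2, which is not a count entry, held many alignments. There were 553, 474 and 125 in FCx and 4996, 2681 and 1043 in HP with indexes 3, 7 and 11. Per 1000000 miRNA counts, the FCx libraries held 1413, 324 and 192 and the HP libraries 1558, 541 and 257. It was thus high with index 3 and low with index 11 in both regions, and the regions overlapped over all libraries. Within each index HP was higher. The log2 ratios of FCx over HP were -0.14 (-0.27 to -0.01), -0.74 (-0.88 to -0.60) and -0.43 (-0.70 to -0.16) at indexes 3, 7 and 11. These are counting intervals, and the ratios were not tested within an index. Scaled per 1000000 genome alignments instead, the means were 350 in FCx and 678 in HP, beside 643 and 785 per 1000000 miRNA counts. The 5p arm at both loci held 213, 314 and 112 alignments in FCx and 1595, 3196 and 560 in HP, so by alignments the 3p arm exceeded the 5p arm in 5 of 6 libraries. With miR-219 counts in place of the 5p alignments, which the counts exceed as given below, it did so in 0 of 6. By alignments the 3p share of both arms was 61.7 ± 9.8% in FCx and 62.2 ± 15.3% in HP (SD, n = 3, two-sided exact permutation p = 1.0, smallest possible 0.1). With counts as the 5p arm the share was 26.0 to 48.8% per library, averaging 41.7 ± 12.3% in FCx and 37.8 ± 10.7% in HP (two-sided exact permutation p = 0.5). These permutation tests, too, ignored the pairing by index. Alignments of the Mir219-2 3p arm, of miR-219 5p and of both miR-338 arms were added together as further entries of the count table. TMM factors and adjusted p were taken over this enlarged table. By edgeR's quasi-likelihood test, the Mir219-2 3p arm then had a log2 ratio of FCx over HP of -0.85 ± 0.89 (adjusted p = 0.991). With the index as a block it was -0.85 ± 0.29 (adjusted p = 0.0237), or -0.43 ± 0.30 with library totals (adjusted p = 0.480).

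**Figure D5:**
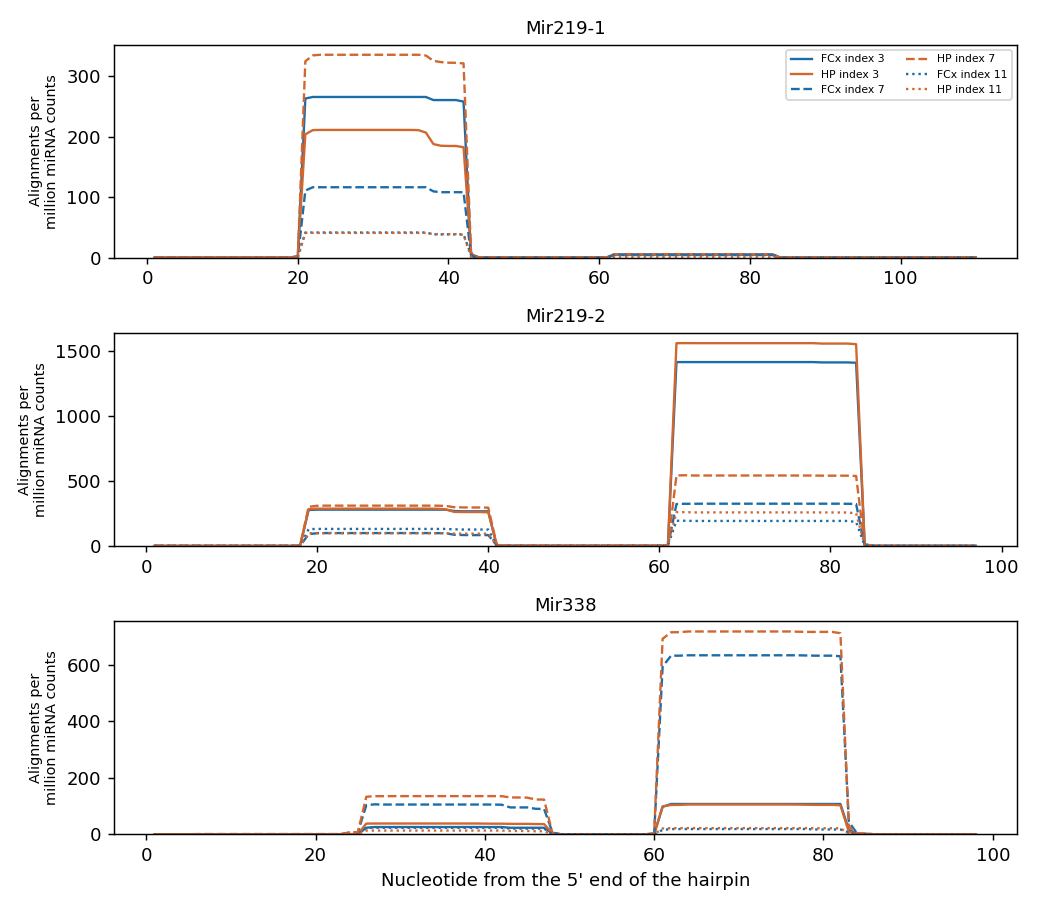
Alignments per 1000000 miRNA counts at each nucleotide from the 5′ end of the Mir219-1, Mir219-2 and Mir338 hairpins, for each library (FCx blue, HP orange; index 3 solid, 7 dashed, 11 dotted). The 3p arm of Mir219-2 reaches 1413 in FCx and 1558 in HP with index 3, and the 3p arm of Mir338 is highest with index 7.

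Counts of miR-219 exceeded the genome alignments on its 5p arms by 1.58 to 3.53 times, while counts of miR-338-3p were 1.05 to 1.17 times and those of miR-338-5p 0.992 to 1.28 times their alignments. The cause was not tested. Other sites within 2 mismatches of miR-219 held 4 alignments in all. Taken by genome alignments, the log2 ratio of FCx over HP of miR-219 5p was 0.13 (-0.08 to 0.34) at index 3, -1.59 (-1.76 to -1.42) at index 7 and 0.31 (0.01 to 0.61) at index 11. HP was thus higher at index 7 by either measure, while at index 3 the alignments did not show the higher HP level that the counts gave.

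Other miRNAs described in the oligodendrocyte lineage were miR-138, miR-23a, miR-9, miR-17, miR-19b, miR-7a, miR-32, miR-145, miR-199a-5p and miR-125a-3p. All 10 were tested, 0 passed between FCx and HP without the block, and 8 had a negative log2 ratio of FCx over HP, as had 293 of all 431. Their median was -0.79 beside -0.37 over all miRNAs. Some of the 8 signs say little: miR-17, miR-19b and miR-32 reached at most 4.68, 2.55 and 0.624 CPM, with no count in some libraries. MiR-23a was at -0.00663. With the block, 2 of 10 passed, beside 17.9% of all miRNAs, both higher in HP (12.8% of all): miR-7a at -2.26 (adjusted p = 7.37e-12) and miR-9, abundant in neural cells, at -0.89 (adjusted p = 0.0348). With library totals miR-7a still passed (adjusted p = 4.05e-07) and miR-9 did not (0.0736). For the index, 5 of 10 passed, beside 61.3% of all.

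The miRNAs whose pattern over the 6 libraries was nearest to a member were found by the root mean square difference of log2 CPM, each centred on its own mean, among miRNAs with at least 100 CPM. Nearest to miR-219 were miR-26a, miR-409-5p and miR-16, at differences of 0.56 to 0.58 beside a median of 1.15 over 138 miRNAs. Nearest to miR-338-3p were miR-222, miR-674 and miR-378, at 0.46, 0.62 and 0.67 beside a median of 2.08. Nearest to miR-338-5p were miR-24 at 0.42 and miR-1-2-as and miR-1 at 0.49, beside a median of 1.38. MiR-1-2-as and miR-1 had almost equal CPM in every library, and their counts cannot be told apart.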

How the data were processed

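Small RNAs of FCx and HP (3 libraries each, 2 runs per library, 12 lane files) were analysed. Per the labels and the study's methods, the authors removed the index and adaptor, discarded reads of other origin, and aligned reads with Bowtie to NCBIM37 and to mature miRNAs; the deposited values are raw counts per miRNA and single alignments per read. Here the runs were summed, and miRNAs with at least 2 counts in FCx or in HP were tested (431 of 469) with edgeR 4.0.16 (quasi-likelihood, TMM) in R 4.3.3, with DESeq2 1.42.0 as an alternative. P-values were adjusted by Benjamini-Hochberg over all 431, or over the enlarged table where genome alignments were added as entries. Intervals and permutation tests used scipy.

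Libraries were paired by the index: deviations from the region means correlated at 0.772 to 0.854 for the same index and at -0.597 to -0.245 for different ones. Because the 3 deviations of a region sum to 0, the negative values follow from the positive ones and are no separate evidence of pairing. The index number comes from the labels. The planned fit had no block, and the fit with the index as a block is given beside it. Tests were run on simulated data first. The alternatives were other scalings, filters, tools, single runs, genome alignments and leaving out libraries. Genes named were the 3 members and per member the 3 nearest in pattern. The fixed lists are spelled out by name or described by count and range. Of the oligodendrocyte list, values are given for those that passed between FCx and HP with the block, not for those that passed the index test. From the other lists, miR-132, miR-137 and miR-204 passed edgeR's blocked test with TMM, beside 17.9% of all miRNAs. Their log2 ratios of FCx over HP were 1.41 (adjusted p = 0.000102), -1.24 (0.00263) and -1.49 (0.000898). Values of single members of the neuronal list, the microglia and blood list and the endothelium and mural list were added after they were seen. The members and lists were chosen with earlier results of these data known. The microarray part of the study was not used here.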

Additional observations from a re-analysis of the deposited data

Results flagged for a closer look

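By counts, miR-219 changed direction between FCx and HP with the index, and the same direction was seen in both runs of each index. The runs sample the same libraries and are not replicates. The log2 ratio of FCx over HP was -0.24 at index 3, -2.18 at index 7 and 0.41 at index 11. The ratio of miR-338-5p also changed sign, at -0.43, -0.21 and 0.90, on 11 to 197 counts in FCx. Its counting intervals included 0 at indexes 3 and 7, however, and by genome alignments also at index 11 (-0.12 to 1.66), so a change of direction was not established. These differences between indexes were not tested, and with TMM factors the ratio at index 11 was -0.27 for miR-219 and 0.22 for miR-338-5p.

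Alignments lay on arms that have no entry in the counts. The 3p arm of Mir219-2 held 9872 alignments over all libraries, and miR-219a-1-3p, the 3p arm of Mir219-1, held 59. On the opposite strand of the hairpins there was 1 alignment at Mir219-1 and 0 at Mir219-2 and Mir338, which allows up to 3.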

How the results depend on the processing

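The count of miRNAs called between FCx and HP, 2 in the planned fit, was 8 with no filter, 12 with DESeq2's Wald test, 9 with edgeR's exact test, 15 with the 12 lane files as samples and 0 with pooled lanes only, where 18 had an unadjusted p under 0.05. With the index as a replicate block it was 77 (TMM), 56 (library totals), 59 (DESeq2's size factors), 41 (DESeq2's Wald test), 68 (individual lanes only) and 46 (pooled lanes only), and leaving out libraries gave 0 to 7 without the block and 30 to 51 with it. Of the blocked calls, 71.4% were higher in HP with TMM, 35.7% with library totals and 44.1% with DESeq2's size factors. MiR-219 passed in 5 of 11 blocked fits and in 0 of 18 others, and the paired fits called neither arm of miR-338. Its blocked values past the threshold were -1.09 (TMM), -1.001 (individual lanes), -1.14 (pooled lanes), -0.80 (genome alignments, TMM) and -1.20 (without index 11). With genome alignments and library totals it was -0.38 (adjusted p = 0.611).

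The ratio of miR-338-3p turned positive, at 0.0502 with DESeq2's size factors, 0.0424 with no filter and 0.0489 with DESeq2's Wald test. That of miR-338-5p did so at 0.0513, 0.0355 and 0.0504 under the same settings. It was also positive with the block, at 0.0535 with library totals and at 0.0768 without index 3. When single libraries were left out, the ratios ran from -2.31 to 1.90 for miR-338-3p and from -1.30 to 1.17 for miR-338-5p. The lowest values were those without FCx index 7 and the highest those without HP index 7, so index 7 remained in the other region only. With the block and indexes 3, 7 or 11 left out of both regions, miR-338-3p was at -0.30, -0.47 and -0.12. MiR-338-5p was then at 0.0768, -0.13 and -0.19. The ratio of index 7 over index 11 of miR-219 ran from -0.54 to 1.01 when libraries were left out and was 1.26 in pooled lanes. The mean within-index ratio of miR-338-3p was -0.19 in individual lanes, 0.0649 in pooled lanes and -0.55 with TMM scaling. The index range of miR-219 in individual and in pooled lanes came to 5.29 and 3.58 (FCx) and to 4.07 and 5.68 (HP), and that of miR-338-5p in HP was 16.6 in pooled lanes. The causes were not tested. Counts of miR-338 in FCx with indexes 3 and 11 limit the precision of its ratios there.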
